A study of Mus musculus with 4 samples.

Results

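The Hox genes were described cell class by cell class in single-cell transcriptomes of the mouse sciatic nerve. Members were the genes named Hoxa, Hoxb, Hoxc or Hoxd with a number in any of the 4 count matrices, and a member that a matrix did not list was counted as 0 there. This gave 36 Hox genes of 22716 listed genes, with 34 listed at 3 d postinjury (DPI), 31 in the uninjured nerve, 30 in the first neonatal preparation and 32 in the second. Hoxb13, Hoxd1 and Hoxd4 were not listed in any of the 4 matrices and could not be analysed. This rule used the names alone and no measured value, although the members were chosen with earlier results of these data known.

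All 4 groups were wild-type CD1 mice whose nerves were digested with 2 enzymes, collagenase and trypsin, and profiled by Drop-seq, a droplet method that counts unique molecular identifiers (UMIs) at the 3′ ends of transcripts. The injured group consisted of distal nerve segments from adult mice, collected 3 d after a unilateral resection. Uninjured cells came from bilateral sciatic nerve segments of adult mice. One neonatal group was sorted by FACS from nerves of postnatal day 3 to 4 and is called neonatal FACS. The other neonatal group, from postnatal day 2 to 3, was cleared with myelin removal beads, as were both adult groups, and is called neonatal beads. Injured nerve was the distal segment of 1 side, while the uninjured nerve was taken from both sides and is not described as distal, so injury cannot be told apart from side or from position along the nerve. The neonatal preparations also differ in age and in method. There was 1 library for each group, so no test between groups was possible and no p-value is given. Every interval is an exact 95% interval, and intervals and floors cover counting error only.

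Hox genes encode homeodomain transcription factors that specify position along the body axis. They lie in 4 clusters, and their order along the chromosome follows the order of their domains, with low numbers expressed from the head end and high numbers towards the tail and in the distal limb. Genes with the same number in different clusters are paralogs. Fibroblasts and smooth muscle of adult organs are known to keep a Hox pattern that reflects where in the body they arose.

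Per the mm10 gene models of GENCODE M21, the listed HoxA genes span 105291 bases of chromosome 6 on the minus strand. HoxB spans 96800 bases of chromosome 11, HoxC 115750 bases of chromosome 15 and HoxD 80133 bases of chromosome 2, each on the plus strand. Exonic bases are shared with another gene of the same strand for 8 members, but for 0 members within the last 500 bases, the end that Drop-seq counts. The gene model of Hoxd3 shares 2613 of its 4191 exonic bases with Hoxd4 and Gm28230, but 0 within its last 500 bases. The effect of this sharing on its counts was not tested. Exons of an opposite-strand gene overlap 9 members, and whether counting used strand is unknown.

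RefSeq start sites on GRCm38.p6 gave 22 promoter entries for 20 members. The entries of 3 clusters are printed here to set the base composition of these starts beside the expression values, 1 for the member with the most UMIs among those whose 250 bases before the start held no annotated exon. The single HoxC entry, that of Hoxc4, lay in an exon in full and is not shown. Sequences run 5′ to 3′ on the strand of the gene up to the base before the start, and capitals mark each CpG. The Hoxa9 sequence lies at chr6:52227371-52227620 on the minus strand within an intron of the longer Hoxa9 model, the Hoxb4 sequence at chr11:96318017-96318266 on the plus strand before that gene, and the Hoxd8 sequence at chr2:74704365-74704614 on the plus strand before that gene.
Hoxa9: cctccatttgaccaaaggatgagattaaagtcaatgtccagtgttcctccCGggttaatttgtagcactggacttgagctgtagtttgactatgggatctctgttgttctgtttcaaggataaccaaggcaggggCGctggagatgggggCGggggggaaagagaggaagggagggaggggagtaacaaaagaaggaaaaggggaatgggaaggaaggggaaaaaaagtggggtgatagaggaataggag
Hoxb4: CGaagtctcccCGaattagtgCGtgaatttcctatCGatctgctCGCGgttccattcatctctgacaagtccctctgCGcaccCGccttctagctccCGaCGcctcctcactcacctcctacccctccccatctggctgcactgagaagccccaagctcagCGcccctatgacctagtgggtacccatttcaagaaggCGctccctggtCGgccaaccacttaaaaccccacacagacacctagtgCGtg
Hoxd8: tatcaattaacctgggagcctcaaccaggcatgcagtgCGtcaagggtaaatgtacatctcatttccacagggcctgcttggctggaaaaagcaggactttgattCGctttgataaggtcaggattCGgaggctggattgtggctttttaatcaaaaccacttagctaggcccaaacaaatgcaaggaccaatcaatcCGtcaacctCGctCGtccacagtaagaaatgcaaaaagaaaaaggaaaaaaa
These stretches held 3 CpGs for Hoxa9, 14 for Hoxb4 and 6 for Hoxd8. Over the full 300 bases of each entry, from 250 before to 50 after the start, the 22 Hox entries had a median GC content of 57.7% and a median of 14.5 CpGs. All 32851 entries had medians of 52.7% and 7. The letters TATAAA stood on either strand in 3 of the Hox entries (13.6%) and in 13.6% of all entries. The letters TGATTNAT, a form of the site that Hox and Pbx proteins bind together, stood in 2 Hox entries (9.09%; Hoxa2 and Hoxd11) and in 3.22% of all. The direct repeat with a spacer that retinoic acid receptors bind stood in 0 Hox entries and in 3 entries of all genes.

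The libraries held 4513814 to 8123103 UMIs, and 1837 to 5420 cells per library passed the filters with a median of 996.5 to 1797.5 UMIs. Any pair of libraries had at most 3 cell barcodes in common. Clusters were named by markers, written as endothelial-like and so on, and Hox genes were kept out of the genes used for clustering. The defining markers were present in their classes: the 7 endothelial markers summed to 5424 to 7068 CPM in endothelial-like cells and to at most 452.5 CPM in the other classes, where CPM is UMIs per 1000000 UMIs of a class sum. The 6 mesenchymal markers summed to 49940 to 129000 CPM in mesenchymal-like cells. Their sum was 999.8 to 2596 CPM in endothelial-like cells, 3389 to 10040 CPM in vascular smooth muscle (VSM)/pericyte-like cells and 5746 to 10730 CPM in Schwann-like cells, and the part of that RNA in the Hox values below was not tested. UMIs at 3′ ends were not scaled by transcript length, so CPM values are UMI levels of 3′ ends.

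In all, 9376 Hox UMIs were counted in the cells kept, between 0.0374% and 0.0553% of the UMIs of a library. HoxC contributed 3492, HoxA 2549, HoxB 1889 and HoxD 1446. Of the 36 members, 23 had at least 50 UMIs and are the main genes named below, led by Hoxc10 (929), Hoxa9 (826), Hoxa10 (825), Hoxc9 (719) and Hoxd3 (652). The other 13 had 1 to 41 UMIs, among them Hoxa2, Hoxa4, Hoxa11, Hoxa13, Hoxb1, Hoxb3, Hoxc12, Hoxc13 and Hoxd10 to Hoxd13. The most 5′ genes of paralog group 13 were thus near 0, with 1 UMI for Hoxa13, 9 for Hoxc13 and 1 for Hoxd13.

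**Figure D1:**
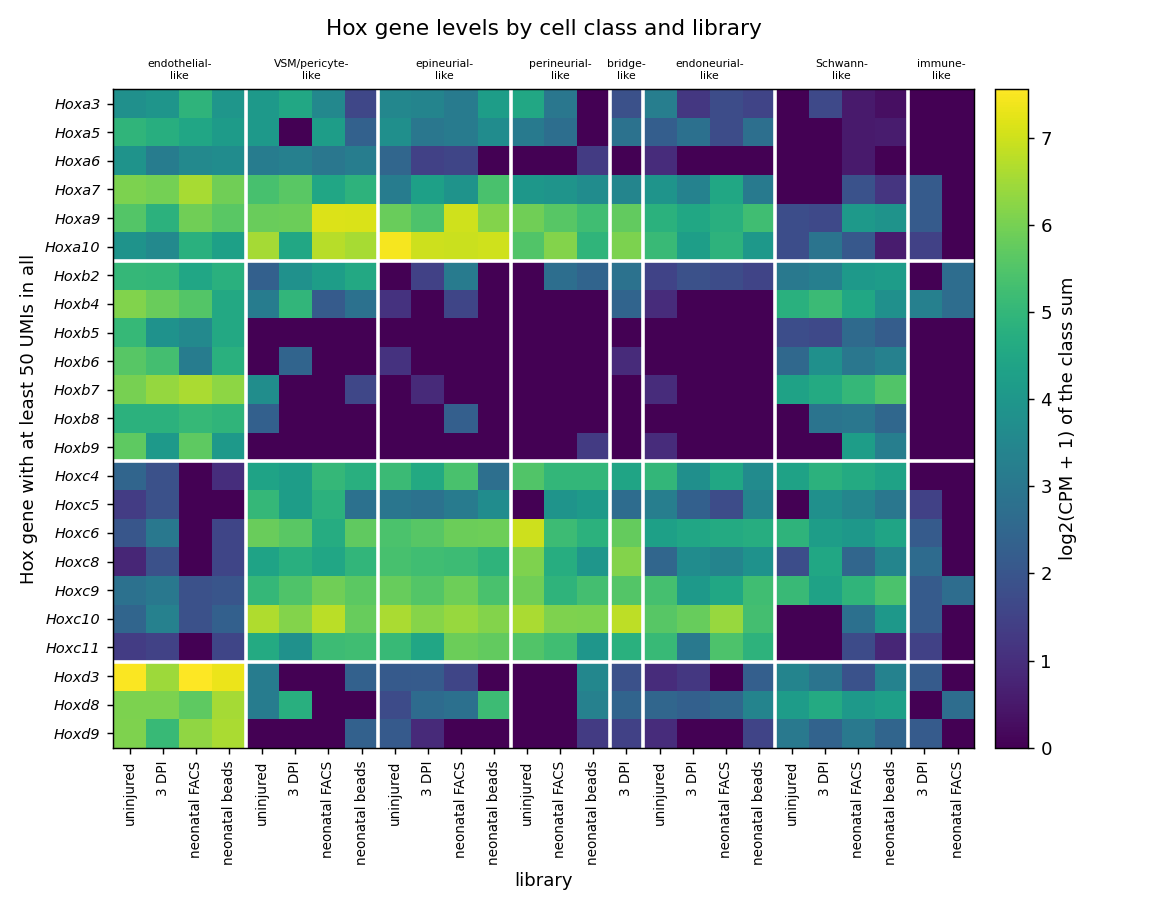
Levels of the 23 Hox genes with at least 50 UMIs, as log2(CPM + 1) of the class sum, in rows by cluster and in columns by cell class and library, with immune-like cells of the 3 DPI and neonatal FACS libraries on the right. The HoxB and HoxD rows were bright in endothelial-like columns and mostly dark in columns of the mesenchymal subtypes and VSM/pericyte-like cells, where the HoxA and HoxC rows were bright.

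Summed over the 36 genes, Hox RNA was highest in endothelial-like cells in each of the 4 libraries. The level there was 859.2 CPM (810 to 911) in the uninjured nerve, 657.7 CPM (611 to 707) at 3 DPI, 851.8 CPM (761 to 951) in neonatal FACS and 772.5 CPM (719 to 829) in neonatal beads. Schwann-like cells had 186.7 CPM (147 to 233), 235.9 CPM (194 to 285), 249.6 CPM (229 to 272) and 265.7 CPM (250 to 282) in the same order. Mesenchymal-like cells lay between, at 434.7, 358.2, 448.7 and 328.8 CPM, and VSM/pericyte-like cells at 556.3, 482.8, 655.7 and 584.9 CPM. Immune-like cells had 43.8 CPM (28.3 to 64.6) at 3 DPI and 22.1 CPM in neonatal FACS, and 0 of 39607 UMIs in neonatal beads, which allows up to 93.1 CPM. The 17 uninjured immune-like cells had 3 Hox UMIs and are too few to place. An unnamed 3 DPI cluster of 40 cells led by S100a8 and S100a9, genes of neutrophils, had 0 Hox UMIs of 21966.

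**Figure D2:**
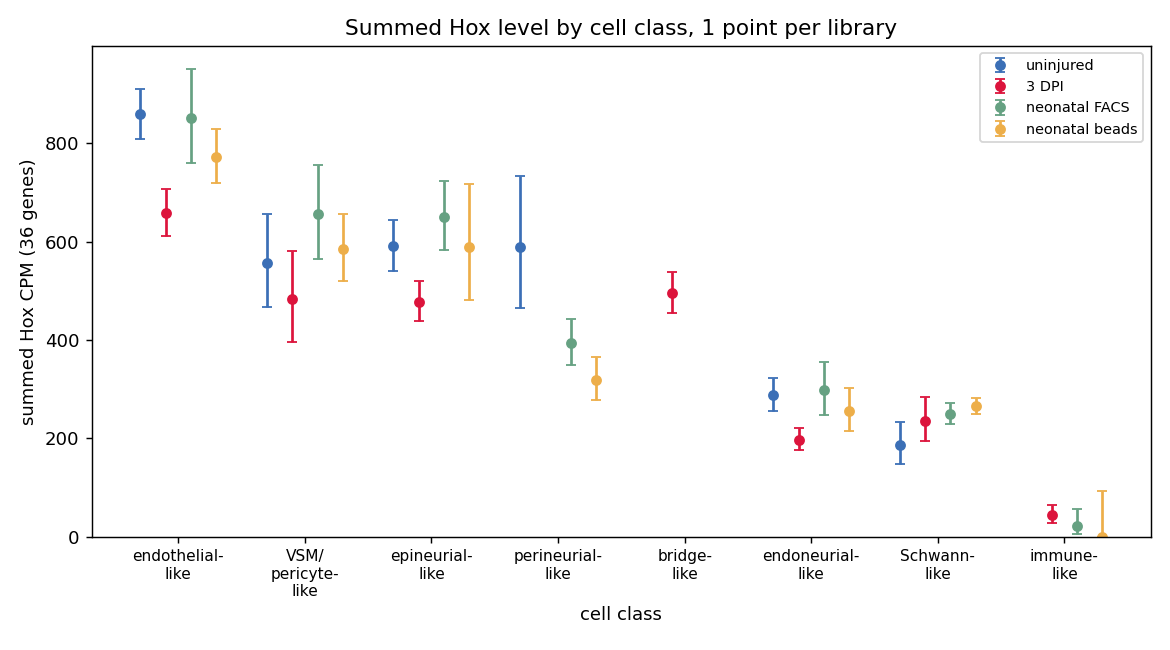
Summed CPM of the 36 Hox genes in each cell class, 1 point per library, with bars for exact Poisson 95% intervals of the class sum. Endothelial-like cells were highest in every library (657.7 to 859.2 CPM), Schwann-like cells ranged from 186.7 to 265.7 CPM, and immune-like cells, shown for 3 libraries, were at or below 43.8 CPM.

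At least 1 Hox UMI was found in 74.4% of uninjured, 64.4% of 3 DPI, 71.9% of neonatal FACS and 60.1% of neonatal beads endothelial-like cells, whose median depths were 1868, 1996, 2036 and 1368 UMIs. After each cell was thinned to 500 UMIs, the shares were 37.5%, 31.3%, 31.8% and 31.6%. For Schwann-like cells, with medians of 989, 1925, 1324 and 916.5 UMIs, the shares were 17.2%, 36.4%, 27.1% and 21.4% before and 9.73%, 9.45%, 11.6% and 10.9% after thinning. The share among 3 DPI immune-like cells (median 926 UMIs) was 4.64%, and 1.75% after thinning. The difference between 3 DPI and uninjured Schwann-like cells in the unthinned share was thus not seen at equal depth.

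The cell classes differed in which clusters they used. Endothelial-like cells drew on HoxB, HoxD and HoxA. In the uninjured nerve 38.1% of their 1128 Hox UMIs came from HoxB, 37.5% from HoxD, 21.7% from HoxA and 2.66% from HoxC. At 3 DPI the shares were 41.5%, 29.1%, 24.1% and 5.31%, in neonatal FACS 32.1%, 38.1%, 29.2% and 0.629%, and in neonatal beads 29.0%, 45.5%, 23.6% and 1.91%. HoxC was the smallest part in each library.

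Mesenchymal-like cells instead drew on HoxC and HoxA. HoxC gave 57.8% of their Hox UMIs in the uninjured nerve, 61.4% at 3 DPI, 58.2% in neonatal FACS and 60.8% in neonatal beads, and HoxA 39.6%, 34.0%, 39.4% and 31.2%. HoxB gave 0.777%, 2.20%, 1.63% and 1.11% and HoxD 1.78%, 2.43%, 0.814% and 6.90%. VSM/pericyte-like cells were like them in this measure, with 43.9% to 51.4% from HoxC, 33.6% to 49.5% from HoxA, 3.23% to 10% from HoxB and 0% to 5.46% from HoxD. In neonatal FACS the VSM/pericyte-like cells had 0 HoxD UMIs among 186.

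Schwann-like cells differed from both, drawing on HoxB and HoxC together with some HoxD. HoxB gave 33.8%, 38.5%, 43.2% and 38.7% of their Hox UMIs in the uninjured, 3 DPI, neonatal FACS and neonatal beads libraries. HoxC gave 45.5%, 42.2%, 36.7% and 43.1%, HoxD 18.2%, 14.7%, 10.7% and 12.0%, and HoxA 2.60%, 4.59%, 9.41% and 6.19%. HoxA was the smallest part in each library. Over 7 settings of the filters and clustering, the endothelial-like HoxC share stayed between 0.629% and 5.50%, the mesenchymal-like HoxB share between 0.750% and 2.39% and the Schwann-like HoxA share between 2.60% and 11.7%.

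**Figure D3:**
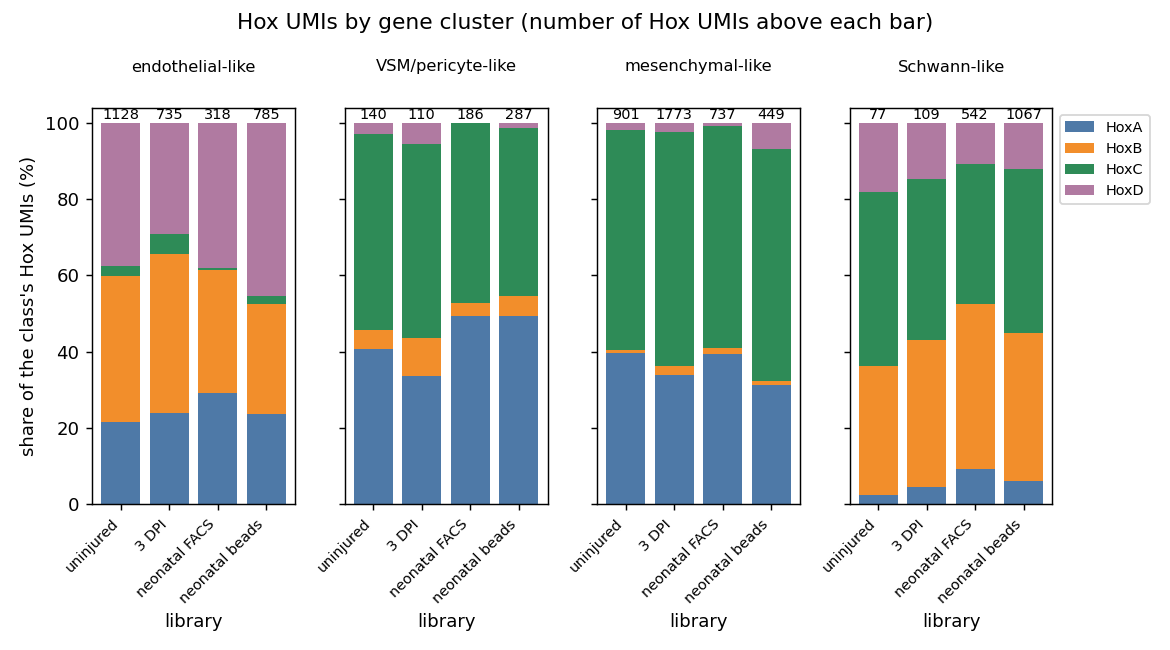
Share of the Hox UMIs of 4 cell classes that came from the HoxA, HoxB, HoxC and HoxD clusters, 1 bar per library with its number of Hox UMIs above it. HoxC was at most 5.31% of endothelial-like bars and at least 57.8% of mesenchymal-like bars, and HoxA was at most 9.41% of Schwann-like bars.

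The same split was seen within single cells. Of 141 uninjured endothelial-like cells with at least 3 Hox UMIs, 121 had a HoxD UMI, 118 a HoxB UMI, 71 a HoxA UMI and 14 a HoxC UMI. Of 254 such mesenchymal-like cells at 3 DPI, 233 had a HoxC UMI, 190 a HoxA UMI, 18 a HoxB UMI and 20 a HoxD UMI. Among 51 such Schwann-like cells of neonatal FACS, 37 had a HoxB UMI, 33 a HoxC UMI, 17 a HoxD UMI and 10 a HoxA UMI. Neonatal beads gave 41 of 55 Schwann-like cells with a HoxC UMI and 30 with a HoxB UMI. In these cells with at least 3 Hox UMIs, the cluster shares were therefore not the sum of separate cells with 1 cluster each. Such cells were 51 of 1217 and 55 of 3670 neonatal Schwann-like cells, and cells with fewer Hox UMIs were not examined in this way. Only 13 Schwann-like cells at 3 DPI and 3 in the uninjured nerve had as many, too few to judge in the latter. The part of doublets among these cells was not tested.

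The classes also differed along the clusters. Paralog groups 9 and above, the posterior genes, gave 67.5%, 63.3%, 67.3% and 61.7% of mesenchymal-like Hox UMIs in the uninjured, 3 DPI, neonatal FACS and neonatal beads libraries. They gave 55.0%, 44.5%, 71.5% and 65.5% among VSM/pericyte-like Hox UMIs. For endothelial-like cells the shares were 22.9%, 17.3%, 26.7% and 25.0%, and in Schwann-like cells 24.7%, 13.8%, 33.4% and 32.1%. Group 10 alone stood at 93.7 to 165.0 CPM in mesenchymal-like and at 24.4 to 37.5 CPM in endothelial-like cells, whereas group 3 stood at 109.2 to 225.0 CPM in endothelial-like and at 6.70 to 12.1 CPM in mesenchymal-like cells.

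Endothelial-like cells were set against mesenchymal-like cells of the same library, and a gene was called higher or lower when both classes together had at least 20 UMIs and the CPM ratio reached 2-fold. The summed Hox ratio was 1.98 (1.81 to 2.16) in the uninjured nerve, 1.84 (1.68 to 2.0) at 3 DPI, 1.90 (1.66 to 2.17) in neonatal FACS and 2.35 (2.09 to 2.64) in neonatal beads. In the uninjured nerve 13 of 22 Hox genes were called higher and 7 lower, where 20.6% and 15.8% of all genes were called. The counts were 11 and 8 of 20 at 3 DPI (all genes 14.1% and 18.0%), 6 and 7 of 14 in neonatal FACS (20.2% and 18.2%) and 11 and 6 of 19 in neonatal beads (18.6% and 14.7%). Hoxa7, Hoxb7, Hoxd3, Hoxd8 and Hoxd9 were higher, and Hoxc4, Hoxc6, Hoxc8, Hoxc9, Hoxc10 and Hoxc11 lower, in each of the 4 libraries.

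Hoxd3 was the leading endothelial-like gene in each library, with 182.1 CPM (239 UMIs) in the uninjured nerve, 86.8 CPM (97 UMIs) at 3 DPI, 187.5 CPM (70 UMIs) in neonatal FACS and 160.4 CPM (163 UMIs) in neonatal beads. A Hoxd3 UMI was found in 34.0% of the uninjured endothelial-like cells. The gene had 4, 13, 1 and 9 UMIs in mesenchymal-like cells. Hoxd3 encodes a group 3 factor that is known to act in endothelial cells during the formation of vessels.

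The other HoxD genes followed it. Hoxd9 stood at 67.8, 33.1, 77.7 and 95.5 CPM and Hoxd8 at 66.3, 66.2, 50.9 and 91.5 CPM in the endothelial-like cells of the uninjured, 3 DPI, neonatal FACS and neonatal beads libraries. In mesenchymal-like cells Hoxd9 had 4, 3, 0 and 2 UMIs. Hoxd10, the next gene towards the 5′ end, had 8, 6, 3 and 4 UMIs in endothelial-like cells, so the level dropped off past group 9.

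Among HoxB genes Hoxb7 stood at 63.2, 80.5, 96.4 and 75.8 CPM in endothelial-like cells and had 1, 5, 0 and 0 UMIs in mesenchymal-like cells. Hoxb4, a gene also studied in blood stem cells, stood at 69.3, 56.4, 45.5 and 22.6 CPM. Hoxb9 stood at 50.3, 16.1, 50.9 and 15.8 CPM and Hoxb6 at 47.2, 38.5, 8.04 and 26.6 CPM. Hoxb5, a factor of the embryonic vascular lineage, had 43, 15, 4 and 23 UMIs in endothelial-like cells. All cells kept held 44, 16, 15 and 38 Hoxb5 UMIs, and those outside endothelial-like cells were in Schwann-like cells. The gene had 0 UMIs in the mesenchymal-like, VSM/pericyte-like and immune-like cells of all 4 libraries. A count of 0 allows up to 0.606 to 2.20 CPM in mesenchymal-like cells (3 UMIs of the class sum). For VSM/pericyte-like cells this floor was 6.11 to 13.2 CPM, and for immune-like cells 5.26 to 174.2 CPM. Hoxb2 and Hoxb8 ranged from 21.4 to 32.1 CPM.

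The HoxA genes of endothelial-like cells were mainly Hoxa7, at 65.5, 62.6, 93.8 and 60.0 CPM, and Hoxa9, at 44.9, 27.7, 58.9 and 48.2 CPM. Hoxa5 stood at 29.7, 26.0, 21.4 and 16.7 CPM and Hoxa3 at 13.0, 14.3, 29.5 and 14.8 CPM, and Hoxa6, with 64 UMIs in all, at 13.7, 8.05, 10.7 and 11.8 CPM. Hoxa9 has been linked to endothelial progenitors. Its mesenchymal-like level was similar, at 41.5, 37.2, 67.0 and 41.0 CPM, so Hoxa9 was among the few Hox genes with UMIs in quantity in both classes. Each HoxC gene stood at or below 8.95 CPM in endothelial-like cells.

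In summed Hox level a single uninjured endothelial-like cluster stood apart. The cluster led by Slco1a4 and also marked by Mfsd2a, Cldn5 and Abcb1a, genes of barrier endothelium, had 1074 CPM (981 to 1173) of Hox RNA over 150 cells. The cluster led by Rbp7 had 768.6 CPM (675 to 871) and the one led by Selp, a gene of venules, 728.7 CPM (658 to 805), with intervals that overlap. Hoxd3 stood at 282.5 CPM in the Slco1a4-led and at 119.6 CPM in the Selp-led cluster, a ratio of 2.36 (1.74 to 3.24). Hoxb5 was 3.78-fold higher (1.66 to 9.66; 26 against 8 UMIs), Hoxd9 2.20-fold (1.35 to 3.64), Hoxb9 1.77-fold (1.02 to 3.14) and Hoxb4 1.91-fold (1.13 to 3.27). Hoxa7 and Hoxd8 had ratios of 1.13 with intervals that include 1. HoxC had 5 UMIs in the Slco1a4-led and 22 in the Selp-led cluster. These pairs of clusters were chosen after the data had been seen. The uninjured endothelial-like cells with the most Hox UMIs held 58 and 57, and the cluster ratios were not computed without them.

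Against Schwann-like cells of the same library, endothelial-like cells had 4.60-fold (3.65 to 5.88) the summed Hox level in the uninjured nerve, 2.79-fold (2.28 to 3.44) at 3 DPI, 3.41-fold (2.96 to 3.93) in neonatal FACS and 2.91-fold (2.65 to 3.19) in neonatal beads. Hox genes called higher and lower were 13 and 1 of 14 in the uninjured nerve (all genes 21.0% and 15.3%), 10 and 0 of 11 at 3 DPI (19.0% and 16.3%), 9 and 2 of 14 in neonatal FACS (12.6% and 19.9%) and 9 and 6 of 19 in neonatal beads (14.6% and 18.8%). Hoxc9 was the gene called lower in the uninjured nerve, and Hoxc4 and Hoxc9 in neonatal FACS.

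Posterior HoxA and HoxC genes led in mesenchymal-like cells. Hoxc10, a gene of the hindlimb and lumbar region, stood at 70.9 CPM (147 UMIs) in the uninjured nerve, 77.4 CPM (383 UMIs) at 3 DPI, 76.1 CPM (125 UMIs) in neonatal FACS and 56.4 CPM (77 UMIs) in neonatal beads. Its paralog Hoxa10 stood at 93.6, 55.8, 76.1 and 36.6 CPM. Hoxd10, the third gene of the group, had 1, 1, 0 and 1 UMIs, so mesenchymal-like cells had group 10 RNA from HoxA and HoxC and next to none from HoxD.

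Next came Hoxc9 at 47.3, 34.6, 36.5 and 38.1 CPM, Hoxc6 at 35.2, 35.2, 39.0 and 30.8 CPM and Hoxc11 at 33.8, 17.6, 44.4 and 24.9 CPM. Hoxc8 stood at 23.6, 32.3, 24.4 and 16.1 CPM and Hoxc4 at 33.3, 16.4, 31.7 and 20.5 CPM. Hoxc6 and Hoxc8 pattern the trunk in the embryo, and Hoxc11 the hindlimb. Of the 7 HoxC genes with at least 50 UMIs, those other than Hoxc5 stood at 16.1 CPM or more in each library, and Hoxc5 stood at 7.24, 6.06, 9.13 and 13.2 CPM.

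VSM/pericyte-like cells shared with mesenchymal-like cells the lead of HoxC and HoxA, but not every part of the pattern. At 3 DPI HoxB gave 10% of their Hox UMIs against 2.20% in mesenchymal-like cells, and posterior genes 44.5% against 63.3%. Their summed level was higher than that of mesenchymal-like cells as a whole, with ratios of 1.28 (1.06 to 1.53), 1.35 (1.10 to 1.64), 1.46 (1.24 to 1.72) and 1.78 (1.53 to 2.07) in the uninjured, 3 DPI, neonatal FACS and neonatal beads libraries. Hox genes called higher and lower were 3 and 0 of 12 in the uninjured nerve (all genes 16.0% and 19.0%), 6 and 1 of 15 at 3 DPI (12.2% and 15.9%), 2 and 0 of 10 in neonatal FACS (17.1% and 15.5%) and 3 and 1 of 10 in neonatal beads (13.4% and 16.0%). Hoxa9 stood at 55.6, 57.1, 141.0 and 138.6 CPM, and was called higher in both neonatal libraries. Hoxc10 stood at 99.3, 70.2, 109.3 and 55.0 CPM, Hoxa10 at 91.4, 21.9, 105.8 and 93.8 CPM and Hoxc6 at 55.6, 48.3, 24.7 and 51.0 CPM. Epineurial-like cells, the mesenchymal subtype of the outer sheath, had summed Hox levels of 591.3, 478.2, 650.2 and 589.8 CPM. These were near the VSM/pericyte-like sums of 556.3, 482.8, 655.7 and 584.9 CPM.

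VSM cells and pericytes wrap the vessels that endothelial cells line, and these 2 vascular classes differed in part in the clusters they used. HoxC was large in VSM/pericyte-like cells, and HoxB and HoxD in endothelial-like cells. HoxA was a sizeable part of both, at 33.6% to 49.5% and 21.7% to 29.2% of their Hox UMIs. VSM/pericyte-like against endothelial-like cells gave 2 Hox genes called higher and 10 lower of 17 in the uninjured nerve (all genes 11.8% and 24.4%), 2 and 7 of 13 at 3 DPI (11.5% and 20.9%), 3 and 4 of 7 in neonatal FACS (12.7% and 15.0%) and 6 and 9 of 16 in neonatal beads (11.3% and 18.0%). Hoxc10 was higher, and Hoxb7, Hoxd3 and Hoxd9 lower, in each library. Hoxb9 had 66, 18, 19 and 16 UMIs in endothelial-like and 0 in VSM/pericyte-like cells. The counts of 0 allow up to 11.9, 13.2, 10.6 and 6.11 CPM (3 UMIs of the class sum), which at 3 DPI is near the endothelial-like level given above. Endothelial-like cells carried 198.2 to 1980 CPM of VSM/pericyte markers, and the part of these markers in the Hox values was not tested.

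Mesenchymal-like cells as a whole had more Hox RNA than Schwann-like cells, by 2.33-fold (1.84 to 2.98) in the uninjured nerve, 1.52-fold (1.25 to 1.86) at 3 DPI, 1.80-fold (1.61 to 2.01) in neonatal FACS and 1.24-fold (1.11 to 1.38) in neonatal beads. The endoneurial-like subtype was above Schwann-like cells in the uninjured nerve (287.6 against 186.7 CPM) and neonatal FACS (298.0 against 249.6 CPM). It was not above them at 3 DPI (196.9 against 235.9 CPM) or in neonatal beads (255.8 against 265.7 CPM). For mesenchymal-like cells as a whole, genes went both ways. Hox genes called higher and lower were 5 and 0 of 10 in the uninjured nerve (all genes 15.8% and 18.9%), 6 and 4 of 15 at 3 DPI (16.8% and 14.2%), 7 and 5 of 15 in neonatal FACS (14.8% and 21.5%) and 5 and 6 of 18 in neonatal beads (14.1% and 21.2%). Hoxa9, Hoxa10, Hoxc10 and Hoxc11 were higher in each library, and Hoxb2 and Hoxb4 were lower at 3 DPI and in both neonatal libraries.

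Schwann cells are the neural-crest-derived glia of the nerve. Among their paralog groups, group 4 (46.1 CPM, 19 UMIs) and group 9 (43.6 CPM, 18 UMIs) were nearly equal in the uninjured nerve. At 3 DPI group 4 stood highest (62.8 CPM, 29 UMIs), followed by group 8 (51.9 CPM, 24 UMIs). Group 9 led in both neonatal libraries (70.9 CPM in neonatal FACS and 68.5 CPM in neonatal beads). Hoxc9 stood at 33.9 CPM (14 UMIs) in the uninjured nerve, 19.5 CPM (9 UMIs) at 3 DPI, 29.9 CPM (65 UMIs) in neonatal FACS and 41.8 CPM (168 UMIs) in neonatal beads. Hoxb7 stood at 19.4, 23.8, 31.8 and 44.3 CPM, and Hoxb4 at 26.7, 34.6, 21.7 and 13.0 CPM. Only 77 and 109 Hox UMIs were counted in the Schwann-like cells of the uninjured and 3 DPI libraries, against 542 and 1067 in the neonatal ones, and intervals of single genes are wide in the adult nerve.

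Further genes were Hoxc4 at 19.4, 28.1, 23.5 and 19.4 CPM, Hoxc6 at 29.1, 17.3, 15.2 and 20.2 CPM and Hoxd8 at 17.0, 23.8, 15.7 and 18.2 CPM. In each of these 3 genes the highest and lowest library lay within a factor of 2. The lead genes of mesenchymal-like cells were low in Schwann-like cells: Hoxa10 had 1, 3, 7 and 2 UMIs and Hoxc11 0, 0, 5 and 3. Hoxc10 had 0, 0, 13 and 62 UMIs, and the counts of 0 allow up to 7.27 CPM in the uninjured nerve and 6.49 CPM at 3 DPI.

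Hoxc9 was the reverse of Hoxc10 in this respect. As a share of the mesenchymal-like CPM, the Schwann-like CPM of Hoxc9 was 71.8%, 56.4%, 82.0% and 109.9%. In neonatal beads the share was 27.4% for Hoxc10, 3.00% for Hoxc11 and 1.36% for Hoxa10. The mesenchymal genes Dcn, Col1a1 and Col3a1 were at 1.14%, 11.7% and 14.6% in that library. In the uninjured nerve Hoxa10 was at 2.59% and Hoxc10 and Hoxc11 at 0%, with Dcn at 2.25%, Col1a1 at 9.03% and Col3a1 at 6.96%, and the part of carried-over mesenchymal RNA was not tested.

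**Figure D4:**
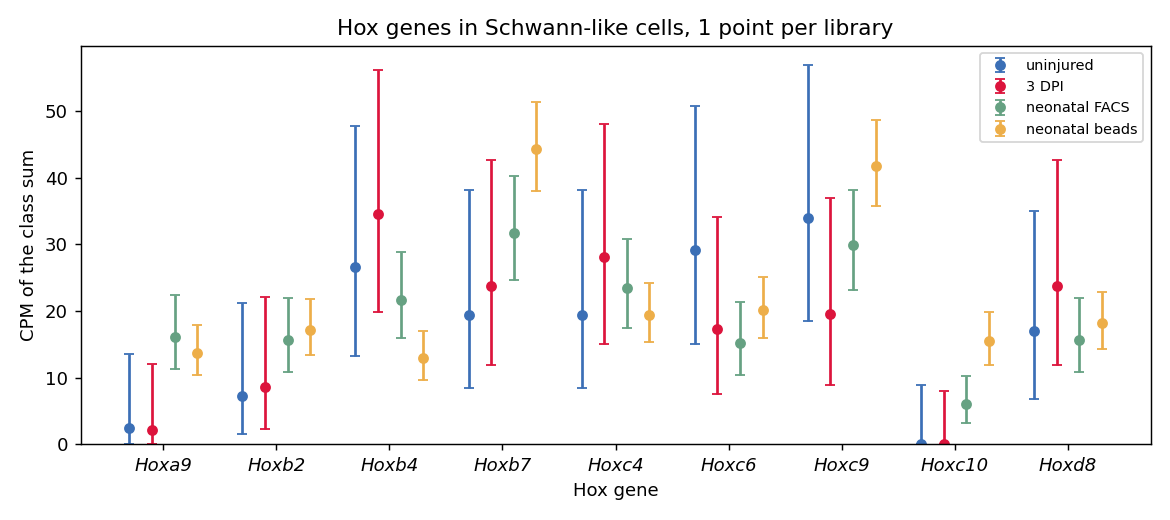
CPM of 9 Hox genes in Schwann-like cells, 1 point per library, with bars for exact Poisson 95% intervals. Hoxc10 was at 0 in both adult libraries and at 5.99 and 15.4 CPM in the neonatal ones, while the intervals of Hoxc4, Hoxc6 and Hoxd8 overlapped in all 4 libraries.

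Schwann-like clusters differed in Hox level too. In neonatal FACS the Pmp2-led cluster of 437 cells, Pmp2 being a protein of peripheral myelin, had 144.2 CPM against 297.0 CPM in the Ttyh1-led cluster of 456 cells, a ratio of 0.485 (0.386 to 0.607). The cluster led by the myelin gene thus had the lower level.

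That difference was unequal among genes. Hoxc9 had 5 UMIs in the Pmp2-led and 48 in the Ttyh1-led cluster, a ratio of 0.119 (0.0368 to 0.296), and Hoxb9 had 0 and 21. Hoxc4 had 15 and 16 UMIs (1.07, 0.491 to 2.31), and Hoxb4 and Hoxd8 had ratios of 1.49 (0.743 to 3.06) and 1.94 (0.837 to 4.73). As clusters, HoxA had a ratio of 0.220, HoxC 0.397, HoxB 0.548 and HoxD 0.983 (0.503 to 1.90). In neonatal beads the Cdkn1c-led cluster had 196.4 CPM against 287.7 CPM in the Scn7a-led cluster (0.683, 0.561 to 0.826), with Hoxc9 again lower at 0.432 (0.234 to 0.744). These pairs, too, were chosen after the data had been seen.

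Within the mesenchyme, the endoneurial-like cells that lie among the axons had less Hox RNA than the epineurial-like cells of the outer sheath. The endoneurial-like sum was 287.6 CPM (256 to 322), 196.9 CPM (175 to 221), 298.0 and 255.8 CPM in the uninjured, 3 DPI, neonatal FACS and neonatal beads libraries. The epineurial-like sum was 591.3 CPM (541 to 645), 478.2 CPM (439 to 520), 650.2 and 589.8 CPM. The ratio of endoneurial-like to epineurial-like was 0.486 (0.421 to 0.561), 0.412 (0.356 to 0.475), 0.458 (0.370 to 0.565) and 0.434 (0.332 to 0.568). Epineurial-like cells were higher in each library.

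No Hox gene was called higher in endoneurial-like cells. The counts lower were 4 of 9 in the uninjured nerve (all genes 9.99% higher and 11.2% lower), 5 of 9 at 3 DPI (10.3% and 11.1%), 5 of 8 in neonatal FACS (8.69% and 14.0%) and 2 of 6 in neonatal beads (12.8% and 11.2%). Hoxa10 and Hoxc6 were lower in all 4, but without the cell with the most Hox UMIs in each class Hoxc6 was no longer called in neonatal beads. Hoxa10 stood at 33.7, 17.8, 28.6 and 15.4 CPM in endoneurial-like and at 174.5, 125.0, 123.4 and 128.5 CPM in epineurial-like cells. Hoxc10 was nearer, at 47.8, 54.8, 83.4 and 38.5 CPM against 95.3, 72.2, 82.3 and 70.1 CPM.

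Perineurial-like cells, of the layer around each fascicle, had 588.5 CPM (466 to 733) in the uninjured nerve, 393.0 CPM in neonatal FACS and 318.8 CPM in neonatal beads. The uninjured value rests on 67 cells and 79 UMIs. Hoxc6 stood at 126.6 CPM (17 UMIs) there and at 35.1 and 28.2 CPM in the neonatal libraries. Hoxc10 stood at 96.8, 67.4 and 66.7 CPM. No 3 DPI cluster was perineurial-like.

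At 3 DPI a bridge-like class of 324 cells, named by Dlk1, Mest and Lrrc15, had 494.6 CPM (454 to 538). This was 2.51-fold (2.18 to 2.90) the level in 3 DPI endoneurial-like cells and 1.03-fold that in epineurial-like cells. Against endoneurial-like cells Hoxc8 was 5.90-fold and Hoxa10 3.68-fold higher. Against epineurial-like cells HoxC as a whole was 1.31-fold higher while Hoxa10 stood at 0.526-fold. A further mesenchymal-like cluster, led by Il1rl1 and Top2a and in division by its leading genes, had 319.4 CPM.

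The question of injury was asked class by class, 3 DPI against uninjured. Summed Hox CPM was lower in endoneurial-like cells by a ratio of 0.684 (0.582 to 0.805), in endothelial-like cells by 0.766 (0.697 to 0.841), in epineurial-like cells by 0.809 (0.716 to 0.914; 1.191, 0.929 to 1.55, at clustering resolution 0.8) and in mesenchymal-like cells as a whole by 0.824 (0.760 to 0.894). The ratio was 1.26 (0.935 to 1.71) in Schwann-like and 0.868 (0.670 to 1.12) in VSM/pericyte-like cells, and both intervals include 1. With 1 library for each condition, library and injury cannot be told apart. Immune markers summed to 170.9 to 228.2 CPM in mesenchymal-like, endothelial-like, VSM/pericyte-like and Schwann-like cells at 3 DPI and to at most 29.7 CPM in the uninjured nerve, and their part in the ratios was not tested.

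Of 9 endoneurial-like Hox genes tested, 3 were called lower and 1 higher, with 8.69% and 17.5% of all genes called. Hoxc11 had 35 UMIs (32.8 CPM) in the uninjured nerve and 11 (7.27 CPM) at 3 DPI, a ratio of 0.222 (0.102 to 0.446). Hoxc9 stood at 39.4 and 15.9 CPM (0.403, 0.233 to 0.681) and Hoxc4 at 30.9 and 12.6 CPM (0.406, 0.218 to 0.735). Hoxc8 was higher, at 4.69 CPM (5 UMIs) and 11.9 CPM (18 UMIs), with an interval of 0.908 to 8.75 that includes 1. Hoxc10 stood at 47.8 and 54.8 CPM. The median log2 ratio was -0.60 over the 9 Hox genes and 0.23 over all genes.

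The endoneurial-like class was much deeper at 3 DPI, with a median of 4400 UMIs per cell against 2156. Hox UMIs per cell were therefore more numerous at 3 DPI, 1.08 against 0.731, while their share of RNA was lower. After thinning to 500 UMIs, 8.95% of 3 DPI and 11.4% of uninjured endoneurial-like cells had a Hox UMI.

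Among epineurial-like cells 1 of 10 Hox genes was called higher and 0 lower, with 8.20% and 3.29% of all genes called. Hoxa7 stood at 8.04 CPM (7 UMIs) in the uninjured nerve and 18.5 CPM (21 UMIs) at 3 DPI, with an interval of the ratio from 0.942 to 6.41. The median log2 ratio was -0.33 over the 10 Hox genes and 0.13 over all genes. A pair of clusters made up the class, and their mix differed. The cluster with Pi16 and Smpd3 among its leading genes held 61.0% (56.2 to 65.7) of the epineurial-like cells at 3 DPI and 24.1% (19.9 to 28.8) in the uninjured nerve, and its Hox level was 0.638 and 0.622 of that of the cluster led by Inmt and Comp. Compared cluster by cluster, the ratio of 3 DPI to uninjured was 0.923 (0.797 to 1.07) for the Inmt-led and 0.947 (0.722 to 1.25) for the Pi16-led cells, so the lower sum of the class was not seen beyond counting error within either cluster.

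In mesenchymal-like cells as a whole 2 of 13 Hox genes were called lower and 0 higher, with 7.27% and 16.4% of all genes called. Hoxc4 stood at 33.3 and 16.4 CPM (0.492, 0.352 to 0.688) and Hoxa3 at 10.1 and 4.45 CPM (0.439, 0.230 to 0.839). The median log2 ratio was -0.26 over these Hox genes and 0.24 over all genes. Scaling by edgeR's TMM factors shifted log2 ratios by -0.175 in mesenchymal-like, -0.172 in endoneurial-like, -0.109 in epineurial-like and -0.089 in Schwann-like cells. The share of all called genes that were higher moved from 69.3% to 58.2% in mesenchymal-like, from 66.8% to 54.4% in endoneurial-like and from 71.4% to 59.3% in epineurial-like cells. With that scaling Hoxc11 joined the mesenchymal-like and Hoxa10 the endoneurial-like genes called lower.

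Endothelial-like cells had 4 of 16 Hox genes called lower at 3 DPI and 0 higher, with 5.96% and 7.73% of all genes called. Hoxd3 stood at 182.1 CPM in the uninjured nerve and 86.8 CPM at 3 DPI (0.477, 0.373 to 0.606) and Hoxd9 at 67.8 and 33.1 CPM (0.488, 0.324 to 0.724). Hoxb9 had 66 and 18 UMIs (0.320, 0.179 to 0.546) and Hoxb5 43 and 15 (0.410, 0.212 to 0.753). Neighbours of these genes in the clusters had ratios nearer to 1: Hoxd8 stood at 66.3 and 66.2 CPM, Hoxb8 at 28.2 and 27.7 CPM and Hoxb7 at 63.2 and 80.5 CPM. The median log2 ratio was -0.30 over the 16 Hox genes and 0.03 over all genes.

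One 3 DPI endothelial-like cell of 101282 UMIs held 80 Hox UMIs, 10.9% of the Hox UMIs of its class. Without the cell with the most Hox UMIs in each library, the summed ratio was 0.740 (0.671 to 0.817) and the same 4 genes were called lower. The 4 genes are among those that were higher in the uninjured Slco1a4-led than in the Selp-led cluster, and the 3 DPI endothelial-like cells formed a single cluster with Selp among its leading genes. The part of the mix of endothelial cells in the injury ratio was not tested.

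**Figure D5:**
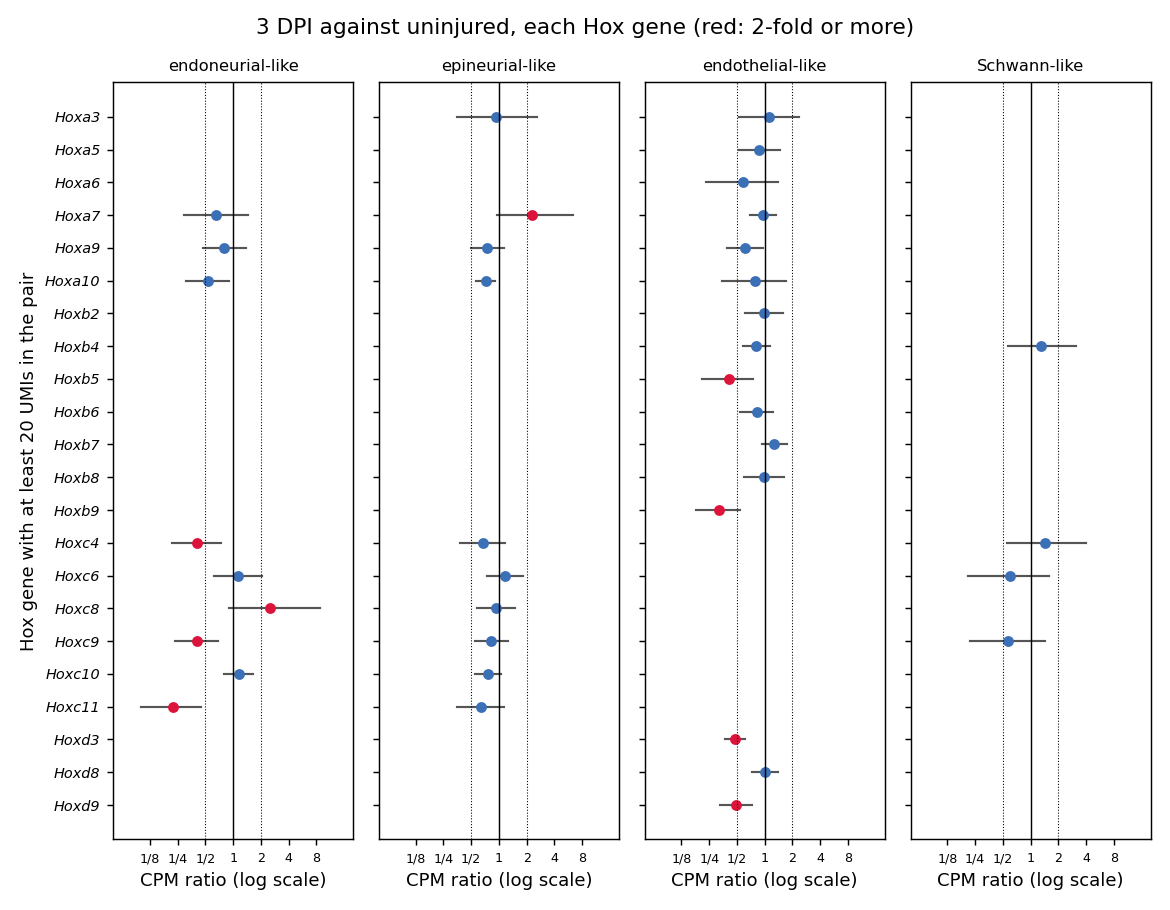
CPM ratio of 3 DPI to uninjured on a log2-spaced axis for each Hox gene with at least 20 UMIs in the pair, in 4 cell classes, with exact 95% intervals. Red points reached 2-fold: Hoxc4, Hoxc9 and Hoxc11 (lower) and Hoxc8 (higher) in endoneurial-like cells, Hoxa7 (higher) in epineurial-like cells, and Hoxb5, Hoxb9, Hoxd3 and Hoxd9 (lower) in endothelial-like cells.

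For Schwann-like cells 4 Hox genes had enough UMIs to compare and 0 were called in either direction, with 18.8% and 14.0% of all genes called higher and lower. Hoxb4 stood at 26.7 CPM in the uninjured nerve and 34.6 CPM at 3 DPI, Hoxc4 at 19.4 and 28.1 CPM, Hoxc6 at 29.1 and 17.3 CPM and Hoxc9 at 33.9 and 19.5 CPM. The intervals of these 4 ratios all include 1. In VSM/pericyte-like cells 1 of 5 Hox genes, Hoxa10, was called lower (23 and 5 UMIs; 0.240, 0.0713 to 0.646) and 0 higher, with 11.0% and 13.2% of all genes called.

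The neonatal nerve was compared with the same uninjured library, so the comparisons share it, and each is given with its own values. Summed Hox CPM in mesenchymal-like cells had a ratio to uninjured of 1.03 (0.935 to 1.14) in neonatal FACS and 0.756 (0.674 to 0.848) in neonatal beads. For endothelial-like cells the ratios were 0.991 and 0.899 (0.820 to 0.986) and for VSM/pericyte-like cells 1.18 and 1.05. Perineurial-like cells had 0.668 (0.519 to 0.869) and 0.542 (0.417 to 0.710). Schwann-like cells had 1.34 (1.05 to 1.72) and 1.42 (1.13 to 1.82) and were the class with ratios above 1 whose intervals exclude 1 in both preparations.

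In Schwann-like cells 3 of 10 Hox genes were called higher and 0 lower in neonatal FACS, with 16.9% and 11.5% of all genes called. In neonatal beads 5 of 15 were called higher and 1 lower, with 19.3% and 13.1% of all genes called. Hoxa9 and Hoxb2 were called in both, but on few adult UMIs. Hoxa9 had 1 UMI in the uninjured nerve, 35 in neonatal FACS (6.65, 1.12 to 270) and 55 in neonatal beads (5.65, 0.973 to 227). Hoxb2 had 3, 34 and 69 UMIs, and both of its intervals include 1.

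Hoxb9 had 0 UMIs in uninjured Schwann-like cells and 38 in neonatal FACS, at least 2.41-fold higher than the floor of 3 UMIs over the class. It had 34 UMIs in neonatal beads, where it was not called. Hoxc10 had 0 UMIs in the uninjured nerve and 62 in neonatal beads, at least 2.12-fold higher. Hoxb7 had 8 and 178 UMIs (2.29, 1.14 to 5.38) and Hoxc8 1 and 40 (4.11, 0.696 to 166). The gene called lower was Hoxb4, with 11 and 52 UMIs (0.486, 0.250 to 1.03). The clusters behind the class differed between preparations: those led by Ttyh1 and Pmp2 gave 456 and 437 of 1217 cells in neonatal FACS, and those led by Scn7a, Ube2c and Cdkn1c gave 2330, 594 and 446 of 3670 cells in neonatal beads.

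Mesenchymal-like cells had 0 of 12 Hox genes called in either direction in neonatal FACS, where 10.6% and 11.1% of all genes were called higher and lower. In neonatal beads 1 of 13 was called higher and 3 lower, with 11.9% and 11.1% of all genes called. Hoxa10 had 194 UMIs in the uninjured nerve and 50 in neonatal beads (0.391, 0.281 to 0.536), against 125 UMIs and 76.1 CPM in neonatal FACS. Hoxa3 and Hoxa5 were the other 2 called lower and Hoxd8 was called higher (7 and 17 UMIs; 3.69, 1.45 to 10.5). The neonatal preparations thus differed from each other for Hoxa10, with 76.1 and 36.6 CPM.

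Among mesenchymal subtypes, endoneurial-like cells had 0 of 8 Hox genes called in neonatal FACS (all genes 13.6% and 13.9%) and 0 higher and 2 lower of 7 in neonatal beads (14.1% and 12.4%), the latter Hoxa10 and Hoxc4. Epineurial-like cells had 1 of 8 called higher in neonatal FACS (12.8% and 10%), which was Hoxa9 with 49 and 65 UMIs (2.26, 1.54 to 3.35). In neonatal beads 1 of 8 was called lower (13.6% and 13.3%), which was Hoxc4 with 30 and 1 UMIs. Perineurial-like cells had 3 of 8 called lower in neonatal FACS (15.6% and 19.7%), Hoxc6, Hoxc8 and Hoxc9, and 1 of 6 in neonatal beads (17.3% and 15.7%), Hoxc6.

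Endothelial-like cells had 1 of 16 Hox genes called higher and 2 lower in neonatal FACS (10.6% and 15.8%) and 0 and 2 of 16 in neonatal beads (9.72% and 10.7%). In neonatal FACS these were Hoxa3 (higher, on 17 and 11 UMIs), Hoxb5 (0.327, 0.0853 to 0.900) and Hoxb6 (62 and 3 UMIs; 0.170, 0.0342 to 0.521). In neonatal beads they were Hoxb4 (0.327, 0.197 to 0.521) and Hoxb9 (0.313, 0.169 to 0.547). No gene was called in both preparations. VSM/pericyte-like cells had 1 higher and 1 lower of 5 in neonatal FACS (18.3% and 11.6%) and 1 higher and 0 lower of 8 in neonatal beads (15.5% and 9.14%). Hoxa9 was the gene called higher in both, with 14 UMIs in the uninjured nerve, 40 in neonatal FACS (2.54, 1.35 to 5.04) and 68 in neonatal beads (2.49, 1.39 to 4.80).

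Other genes of positional identity were taken as lists. The TALE homeodomain proteins of the Pbx, Meis and Pknox families bind DNA with Hox proteins. All 9 had at least 50 UMIs. At 3 DPI against uninjured, 2 of 9 were called higher and 0 lower in mesenchymal-like cells, 2 and 0 of 7 in endoneurial-like, 1 and 0 of 6 in epineurial-like, 0 and 0 of 3 in Schwann-like, 0 and 1 of 5 in endothelial-like and 1 and 0 of 3 in VSM/pericyte-like cells. Of all genes, 16.4% were called higher and 7.27% lower in mesenchymal-like, 17.5% and 8.69% in endoneurial-like, 8.20% and 3.29% in epineurial-like, 18.8% and 14.0% in Schwann-like, 7.73% and 5.96% in endothelial-like and 13.2% and 11.0% in VSM/pericyte-like cells. The 2 of 9 in mesenchymal-like cells is near that background. Meis2 stood at 35.7, 39.2, 33.5 and 20.5 CPM in mesenchymal-like and at 2.43, 4.33, 0.921 and 1.25 CPM in Schwann-like cells.

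Of 21 transcription factors of limb and regional identity, 19 were listed and 10 had at least 50 UMIs. Prrx1, a homeobox gene of limb mesenchyme, stood at 773.9, 848.0, 587.6 and 619.0 CPM in epineurial-like and at 129.3, 76.0, 85.8 and 109.6 CPM in endoneurial-like cells. Tbx18 went the other way, at 45.9, 46.7, 82.3 and 52.6 CPM and 105.9, 158.5, 157.3 and 150.0 CPM. Shox2 stood at 127.9, 126.1, 177.8 and 147.9 CPM in mesenchymal-like cells. At 3 DPI 4 of 11 were called higher and 0 lower in mesenchymal-like cells (all genes 16.4% and 7.27%), 1 and 0 of 5 in endoneurial-like (17.5% and 8.69%), 3 and 0 of 9 in epineurial-like (8.20% and 3.29%), 0 and 1 of 4 in endothelial-like (7.73% and 5.96%) and 0 and 2 of 6 in VSM/pericyte-like cells (13.2% and 11.0%). In Schwann-like cells 0 could be compared.

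The mesenchymal-like genes called higher were Pitx1, Tbx2, Prrx2 and En1. Of these Pitx1, which specifies the hindlimb, had 3 UMIs in uninjured and 62 in 3 DPI mesenchymal-like cells. It stood at 1.45, 12.5, 11.6 and 20.5 CPM in the uninjured, 3 DPI, neonatal FACS and neonatal beads libraries. Tbx4, the hindlimb T-box gene, stood at 0, 1.82, 1.22 and 1.47 CPM and the forelimb gene Tbx5 at 5.31, 1.62, 1.22 and 0 CPM. These 4 genes, Tbx4 and Tbx5 were singled out after their values had been seen.

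Polycomb and trithorax proteins keep Hox genes silent or active. All 19 listed had at least 50 UMIs. At 3 DPI 3 of 18 were called higher and 3 lower in mesenchymal-like cells (all genes 16.4% and 7.27%), 2 and 3 of 17 in endoneurial-like (17.5% and 8.69%), 3 and 2 of 17 in epineurial-like (8.20% and 3.29%), 2 and 5 of 15 in Schwann-like (18.8% and 14.0%), 2 and 3 of 17 in endothelial-like (7.73% and 5.96%) and 1 and 1 of 4 in VSM/pericyte-like cells (13.2% and 11.0%). The 3 of 18 called higher in mesenchymal-like cells is near the background. Ezh2, the methyltransferase of the complex and a gene of dividing cells, stood at 24.1, 82.8, 81.0 and 82.8 CPM in mesenchymal-like and at 97.0, 329.0, 272.0 and 334.0 CPM in Schwann-like cells. The mesenchymal-like genes called were Ezh2, Bmi1 and Phc2 (higher) and Ezh1, Ring1 and Cbx7 (lower), all but Ezh2 named after their values had been seen. Proliferation markers summed to 8.69, 527.5, 143.1 and 136.9 CPM in mesenchymal-like and to 72.7, 1433, 571.1 and 938.4 CPM in Schwann-like cells, and their part in the Ezh2 values was not tested.

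Retinoic acid and Cdx proteins set Hox domains in the embryo, and of 14 genes of this list 12 were listed and 10 had at least 50 UMIs. At 3 DPI 3 of 10 were called higher and 1 lower in mesenchymal-like cells (all genes 16.4% and 7.27%), 3 and 1 of 8 in endoneurial-like (17.5% and 8.69%), 2 and 1 of 9 in epineurial-like (8.20% and 3.29%), 1 and 2 of 5 in Schwann-like (18.8% and 14.0%), 0 and 0 of 4 in endothelial-like (7.73% and 5.96%) and 0 and 0 of 1 in VSM/pericyte-like cells (13.2% and 11.0%). Aldh1a3, which makes retinoic acid, stood at 9.37 CPM in uninjured and 286.0 CPM in 3 DPI endoneurial-like cells. Crabp1, which binds retinoic acid in the cytoplasm, stood at 75.2 CPM in uninjured and 311.7 CPM in 3 DPI Schwann-like cells. Aldh1a2 was the third gene called higher and Aldh1a1 the gene called lower in mesenchymal-like cells, both named after their values had been seen.

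Noncoding genes of the clusters followed their host regions in part. Hotair, in the HoxC cluster next to Hoxc11, stood at 8.20, 7.27, 11.6 and 9.52 CPM in mesenchymal-like cells, with 0, 0.895, 0 and 0 CPM in endothelial-like and 0, 0, 1.84 and 0.747 CPM in Schwann-like cells. Hoxb3os, antisense in the HoxB cluster, stood at 99.4, 32.5, 77.8 and 51.3 CPM in Schwann-like, 32.8, 21.5, 32.1 and 36.4 CPM in endothelial-like and 2.90, 3.44, 4.26 and 3.66 CPM in mesenchymal-like cells. VSM/pericyte-like cells, with few HoxB UMIs, had 43.7, 83.4, 84.6 and 22.4 CPM of it. Hoxb3os overlaps exons of Hoxb2 and Hoxb3, and reads of the strands cannot be told apart where counting ignored strand. It was called lower in 3 DPI Schwann-like cells, where 14.0% of all genes were called lower, and was the 1 call at 3 DPI among the 3 noncoding genes.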

How the data were processed

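The authors aligned Drop-seq reads to mm10 and deposited 1 matrix per library of raw counts, that is UMIs per gene and barcode. Neither strand setting nor gene annotation is stated where the methods were read. Barcodes with at least 200 genes, at most 10% mitochondrial and 5% hemoglobin UMIs were kept. Scrublet's own cutoff marked 1 of 6200 neonatal beads barcodes and had not worked, so in each library the top 5% by Scrublet score were removed (97 to 285 barcodes). This left 1837 to 5420 cells per library, of 2000 to 6200 barcodes. Cells were scaled with scran 1.30.0 and clustered with Seurat 5.3.0 (2000 variable genes, 20 components, resolution 0.4), uninjured and 3 DPI separately and both neonatal libraries together, with Hox genes and the gene lists left out of the variable genes. Clusters were named from marker lists with at least 3 markers detected. The score of 0.4 for mesenchymal subtypes was set after the clusters had been seen. UMIs were summed per class and library in Python 3.11.15. CPM carry exact Poisson, shares exact Clopper-Pearson and ratios exact conditional binomial 95% intervals (scipy 1.17.1). A class at 0 was set to a floor of 3 UMIs in ratios. With 1 library per group no test was run. The rule was to name Hox genes with at least 50 UMIs, and up to 4 genes per list, those with the most UMIs. Other Hox genes, such as Hoxd10, are given by counts, and further genes of the lists were named after their values had been seen. The members and lists were chosen with earlier results of these data known. The calls were also run on counts simulated with known folds. That simulation held counting error only, so it cannot show how the calls would hold across libraries. Alternatives were other filters, scaling (edgeR 4.0.16 TMM), resolution and thinning to 500 UMIs. Cells under 500 UMIs (43 uninjured, 253 at 3 DPI, 330 neonatal FACS and 955 neonatal beads) were left out of thinned shares. Some genes and a pair of clusters are not reported here.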

Additional observations from a re-analysis of the deposited data

Results flagged for a closer look

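Pairs of classes whose summed Hox level stood on opposite sides of the uninjured level under the same contrast were noted, and the difference between the classes was not tested. With neonatal FACS against uninjured, Schwann-like cells had a ratio of 1.337 and perineurial-like cells 0.6678. With neonatal beads against uninjured, Schwann-like cells had 1.423, mesenchymal-like cells 0.7564, perineurial-like cells 0.5418 and endothelial-like cells 0.8991. These contrasts share the uninjured library. The uninjured Schwann-like and perineurial-like values rest on 77 and 79 Hox UMIs.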

How the results depend on the processing

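Of 99 alternative values of 10 results, 81 kept their direction and stayed close to the value reported, 17 moved further and 1 reversed. The reversed value was the 3 DPI to uninjured ratio in epineurial-like cells, 1.191 (0.929 to 1.55) at clustering resolution 0.8. That ratio was 0.6485 with at least 500 genes per barcode, 0.6466 with library-size scaling before clustering, and 0.923 and 0.947 within matched clusters. In mesenchymal-like cells it was 0.8998 on thinned cells, 0.73 with TMM factors and 0.7485 over endoneurial-like and epineurial-like cells only. The mesenchymal-like to Schwann-like ratio on thinned cells was 2.028 at 3 DPI and 1.5 in neonatal beads. Mesenchymal-like Hox genes called lower at 3 DPI numbered 1 with at least 500 genes per barcode, 1 with a minimum of 50 UMIs, 1 over endoneurial-like and epineurial-like cells only, and 7 with a minimum of 1 UMI. Genes called higher numbered 1 without doublet removal, 1 with at most 5% mitochondrial UMIs, 1 on thinned cells and 3 with a minimum of 1 UMI. A minimum of 1 or 50 UMIs changes how many genes are tested, and for the rest the cause was not tested. Over all settings the ratio ranged from 0.6076 to 0.7745 in endoneurial-like and from 1.021 to 1.295 in Schwann-like cells. Of these values 19 came from 4 settings chosen after seeing the data. No paired analysis was possible because each group had 1 library, and for the same reason no replicate could be left out. Depth limits classes with few Hox UMIs, such as the adult Schwann-like cells with 77 and 109.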
